A study of Mus musculus with 2 samples.

Results

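The genes described here encode the MHC class II machinery of the mouse: the classical chains H2-Aa, H2-Ab1, H2-Ea and H2-Eb1, the peptide-loading chains H2-DMa, H2-DMb1, H2-Oa and H2-Ob, the invariant chain Cd74 and the transactivator Ciita. All 10 genes had a probe set that the platform annotation pairs with exactly 1 symbol, giving 11 probe sets, out of 10829 such probe sets for 8251 genes. The genes were chosen by symbol, with earlier readings of the intensities of these same arrays in view, so every ratio below is a description of these arrays and carries no test. The study set the cerebral cortex of presenilin conditional double knockouts, named PS cDKO in the labels, against that of their controls, with 1 oligonucleotide array of total RNA for each genotype and an age of 6 months for both. Neither the number of animals behind an array nor the strain, the sex or the Cre driver of the conditional deletion is named in the sources used. Presenilin is the catalytic part of γ-secretase, an intramembrane protease.

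MHC class II molecules are pairs of an α and a β chain that show peptides from endosomes to CD4 T cells. In the endoplasmic reticulum the chains assemble on the invariant chain, which blocks the peptide groove and carries the complex to endosomes. There proteases such as cathepsin S trim the invariant chain to a short remnant, and H2-DM exchanges that remnant for other peptides, while H2-O restrains H2-DM. Ciita, a co-activator that binds no DNA by itself, switches these genes on through factors assembled at their promoters. In the healthy brain parenchyma class II is scarce. Microglia raise it when activated, and macrophages of the meninges and vessels and dendritic cells carry more.

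Promoter stretches of class II genes are shown because Ciita acts on class II promoters through a module. This module has an X box, bound by the RFX complex, and a Y box, bound by NF-Y. RefSeq promoter windows of the build GRCm38.p6 were matched for 6 of the 10 genes, and the 250 bases before each gene start were searched on both strands. The Y box was searched as ATTGG and the X box core as GNAAC, where N is any base, with ATTGG starting 30 to 36 bases after GNAAC on the same strand. Both the loose X core and the spacing were set after these sequences had been seen. In the stretches below, each read 5′ to 3′ on the gene's own strand, capitals mark GNAAC and ATTGG.
H2-Aa: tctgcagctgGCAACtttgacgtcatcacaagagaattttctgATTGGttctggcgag
H2-Eb1: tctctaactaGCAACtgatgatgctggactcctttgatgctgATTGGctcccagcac
H2-DMb1: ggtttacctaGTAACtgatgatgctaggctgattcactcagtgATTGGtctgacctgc
H2-Oa: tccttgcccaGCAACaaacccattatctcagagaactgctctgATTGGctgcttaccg
H2-Ob: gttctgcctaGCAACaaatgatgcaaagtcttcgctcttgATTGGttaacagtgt
The stretches lie at chr17:34287857-34287914 on the minus strand for H2-Aa, and on the plus strand at chr17:34305766-34305822 for H2-Eb1, chr17:34153087-34153144 for H2-DMb1, chr17:34092293-34092350 for H2-Oa and chr17:34238808-34238862 for H2-Ob. The pair was found in these 5 genes, with 30 to 33 bases from the start of GNAAC to the start of ATTGG. The Y box motif began 43 to 61 bases before the gene start. H2-DMa had 2 windows, of which 1 held ATTGG and neither held the pair. Of 32851 promoter windows of all genes, 33.8% held ATTGG, 79.6% held GNAAC and 1.04% held the pair. A match of letters is a description and not evidence of binding.

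In the PS cDKO cortex the invariant chain had the highest ratio of the members. Cd74 was at least 2.13-fold higher, while the measured classical chains lay between 1.01-fold and 1.08-fold of control. Among the peptide-loading chains, H2-DMb1 was at least 1.33-fold and H2-Oa 1.20-fold higher, and H2-DMa was nearly level. Ciita was 1.11-fold higher. H2-Ea and H2-Ob were too dim on both arrays for a ratio. With 1 array per genotype, none of these differences can be set against variation between animals. Fewer cells of a type and less RNA per cell, or the converse, cannot be told apart in such tissue RNA.

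Each ratio is PS cDKO over control, after the PS cDKO array was scaled up by 0.034 on the log2 scale. Intensities under a floor of 232, the 40th percentile of both arrays pooled, were raised to it. A probe set below the floor on 1 array therefore gives a bound, written "at least". The quoted intensities are those deposited. No detection call was used, so an intensity above the floor does not show that the transcript was present. For scale, the T cell marker Cd4 read 1297 on the control array and the neuron marker Camk2a 438. How much of any member's signal was specific was not tested. Of the 11 member probe sets 7 were above the floor on both arrays, 2 gave a bound and 2 were below the floor on both.

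Cd74, whose product is both the class II chaperone and a surface receptor for the cytokine MIF, had an intensity of 482 on the PS cDKO array and 227 on the control array. The probe set stood at the 67.1th percentile of all probe sets on the PS cDKO array and at the 40.3th percentile on the control array. The control value lay just under the floor, so the log2 ratio of 1.09 is a lower bound, and without a floor the ratio was 2.18-fold. Of 6906 measured probe sets 0.159% were at least 2-fold higher, and with no floor 1.62% of 10803 were. Of the 422 probe sets below the floor in control only, 22.7% had a log2 bound of at least 0.322 and 1.42% one of at least 2-fold. In all 422 the control value stands at the floor, so such a bound reflects the PS cDKO intensity alone and its direction was fixed by the floor. With the floor at the 60th percentile, an intensity of 403, the Cd74 bound was 1.22-fold.

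**Figure D1:**
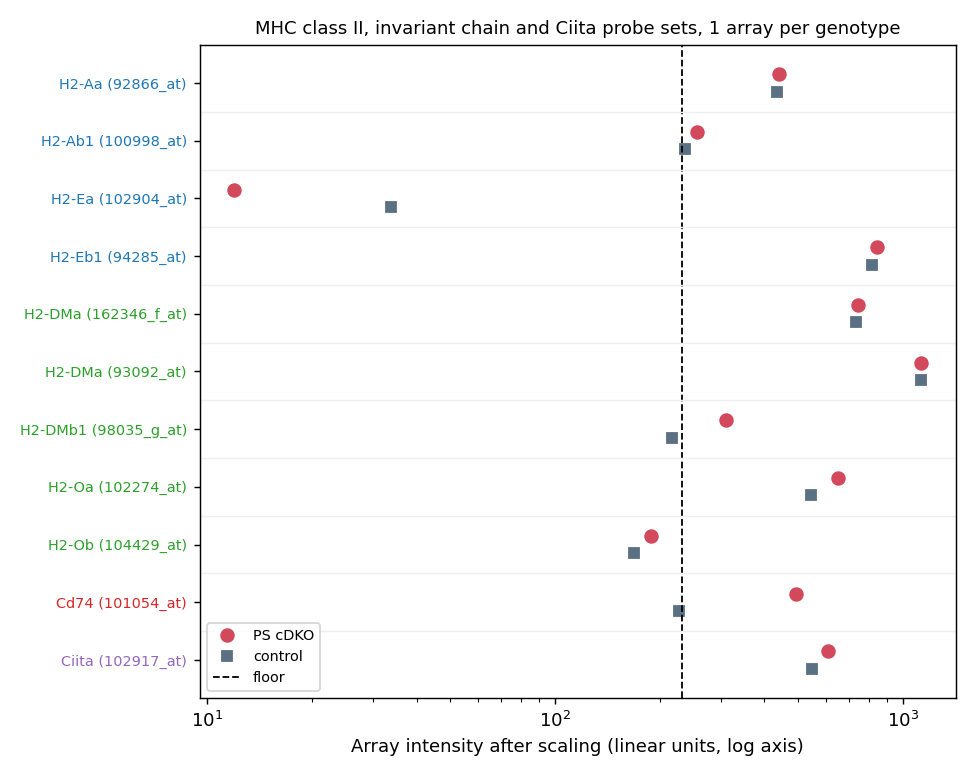
Intensity of each of the 11 member probe sets on the PS cDKO array (circles) and the control array (squares) after scaling, on a log axis, with the floor of 232 as a dashed line and 1 array per genotype. Label colours mark classical chains (blue), peptide-loading chains (green), invariant chain (red) and transactivator (purple). For Cd74 and H2-DMb1 the symbols lie on either side of the floor, further apart for Cd74. The symbols of H2-Ea lie furthest apart, both far below the floor, while those of H2-Aa, H2-Eb1 and H2-DMa nearly coincide.

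The classical chains form the peptide-presenting molecules I-A (H2-Aa with H2-Ab1) and I-E (H2-Ea with H2-Eb1). H2-Aa, the I-A α chain, had intensities of 431 on the PS cDKO array and 436 on the control array, a log2 ratio of 0.02 after scaling and -0.02 as deposited. H2-Ab1, its β chain partner, had 251 on the PS cDKO array and 237 on the control array, a 1.08-fold ratio close to the floor. The intensities of both I-A chains were thus nearly level between the arrays, which does not by itself show level expression. H2-Eb1, the I-E β chain, had 823 on the PS cDKO array and 814 on the control array, a 1.03-fold ratio. H2-Ea, the I-E α chain, had 11.7 on the PS cDKO array and 33.7 on the control array, both far below the floor. It was among the dimmest probe sets, at the 0.676th percentile of the PS cDKO array and the 4.37th of the control array. Without a floor the H2-Ea log2 ratio was -1.50, from these low intensities. Mice of the H2-b haplotype such as C57BL/6 carry a defective H2-Ea promoter, and the gene table, made from C57BL/6J, annotates the gene as a transcribed pseudogene. The sources used do not name the haplotype of these mice. The median log2 ratio of the 3 measured classical probe sets was 0.05, against 0.01 over all 6906 measured probe sets.

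The peptide-loading chains differed among themselves. H2-DMa, the α chain of the H2-DM exchange factor, had 2 probe sets. The brighter read 1104 on the PS cDKO array and 1128 on the control array, and the dimmer read 726 on the PS cDKO array and 734 on the control array. Their log2 ratios were 0.0018 and 0.018 after scaling, and both were negative as deposited, at -0.03 and -0.02. H2-DMa was thus nearly level on both probe sets, and its direction turned with the scaling. The dimmer, whose identifier carries the suffix f, was dropped in the alternative without suffixed probe sets and may not be unique to H2-DMa.

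H2-DMb1, the β chain that pairs with H2-DMa, had an intensity of 302 on the PS cDKO array and 217 on the control array. Its log2 ratio of at least 0.42 became 1.42-fold without a floor. The identifier of this probe set carries the suffix g, which on arrays of this kind marks a probe set that is not unique to a single sequence, and the near-identical paralog H2-DMb2 lies beside H2-DMb1 in the genome. A second probe set from the same sequence record, annotated to both H2-DMb1 and H2-DMb2 and so not a member, read 52.6 on the PS cDKO array and 67.9 on the control array. It lay below the floor and in the opposite direction. The probe set annotated to H2-DMb2 alone read 164 on the PS cDKO array and 150 on the control array, also below the floor. The H2-DMb1 difference therefore rested on 1 probe set that cannot be assigned to H2-DMb1 alone.

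H2-Oa, the α chain of H2-O, had 635 on the PS cDKO array and 544 on the control array, a 1.20-fold ratio. It had the highest ratio of the 7 member probe sets measured on both arrays, and ranked 810 of 6255 among all such probe sets. H2-Ob, its β chain, had 184 on the PS cDKO array and 169 on the control array, below the floor, and 1.12-fold without it. H2-O is made mainly by B cells, thymic epithelium and some dendritic cells.

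Ciita had an intensity of 595 on the PS cDKO array and 547 on the control array, a log2 ratio of 0.15. Over 8 alternative ways of processing its ratio ran from 0.12 to 0.15, and only a changed scaling or normalization could move it. A log2 ratio of this size lay under 0.21, the SD between probe sets of the same gene on these arrays.

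Counted together, 9 of the 9 measured member probe sets were higher in PS cDKO, against 52.1% of all measured probe sets. For Cd74 and H2-DMb1 the floor fixed that direction, which leaves 7 of 7 measured on both arrays, against 50.7% of all such probe sets. Of these 7, 3 turned to lower on the intensities as deposited, where 6 of 9 were higher against 46.6%. The 3 were H2-Aa and both H2-DMa probe sets. At a log2 ratio of 0.322 or more, the lowest size counted here, 0 of the 7 member probe sets measured on both arrays lay that high, against 7.93% of all such probe sets. The bounds of Cd74 and H2-DMb1 reached that size, as did 22.7% of the 422 probe sets below the floor in control only. With bounds included the share over all measured probe sets was 8.57%, and at 1.5-fold or more, reached by Cd74 alone among the members, it was 1.27%. Nothing is read from these counts, since the members were proposed with this contrast in view. None was lower by that size. The median log2 ratio was 0.12 over the 9 and 0.05 over the 7 measured on both arrays. As a scale for these ratios, the 2 brightest probe sets of a gene, compared over 749 genes, gave an SD of 0.21 on the log2 scale (1.16-fold) for a single probe set. Of the 9 member ratios 6 lay within that SD of 0, and H2-Oa, H2-DMb1 and Cd74 lay beyond it, the last 2 as bounds. How many of all measured probe sets lay within that SD was not counted, so this split does not set the members apart. This SD measures disagreement between probe sets on the same arrays and holds no variation between animals.

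**Figure D2:**
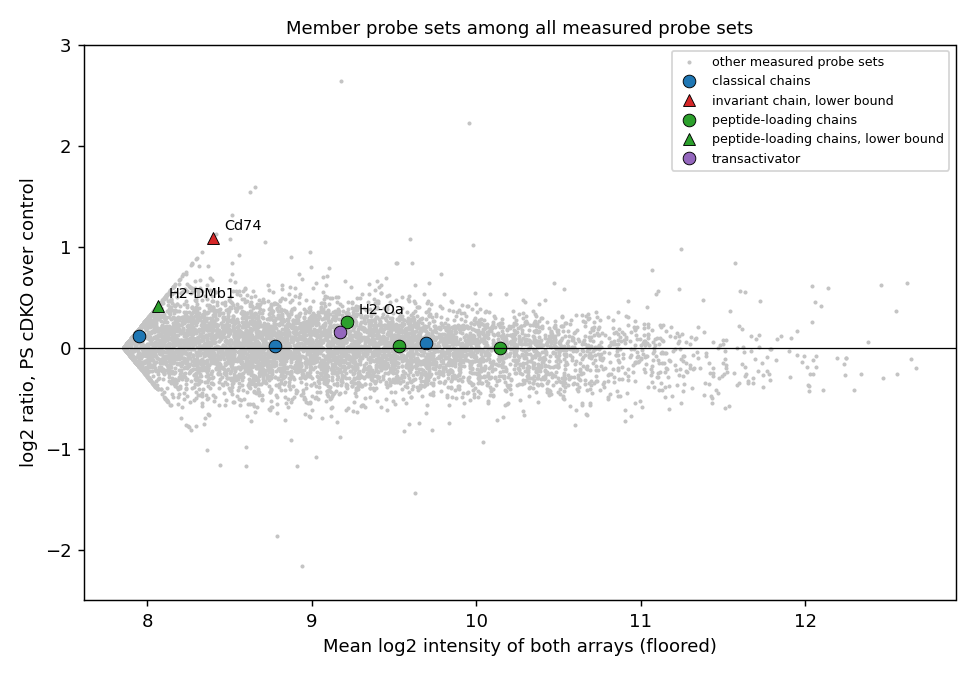
Log2 ratio of PS cDKO over control against the mean log2 intensity of both arrays for all 6906 measured probe sets (grey) and the 9 measured member probe sets (coloured by role; triangles are lower bounds). Cd74 lies at the upper edge of the cloud at 1.09, whereas the classical chains lie between 0.02 and 0.12 and both H2-DMa probe sets within 0.02 of 0.

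Most of the class II genes lie together in the MHC region of chromosome 17, and other genes there were examined beside them. Of 15 such genes on the array 10 were measured, 6 of them higher and 4 lower, and their median was 0.09 on the log2 scale, or 0.03 to 0.14 over the alternatives. Over all 5886 measured genes, the comparison for every list below as well, 51.9% were higher and the median was 0.01. By at least 0.322 on the log2 scale, 8.05% of all genes were higher and 8.36% lower, and in the region 1 was higher, the cytokine gene Tnf (508 in PS cDKO and 412 in control), and 1 lower, the collagen gene Col11a2 (660 in PS cDKO and 899 in control). Tapbp, the tapasin of class I peptide loading, had a log2 ratio of 0.24 as the mean of 2 probe sets at 0.05 and 0.43, and Ltb, a lymphotoxin chain, was 1.20-fold higher. Of the measured genes that directly flank a member, Brd2, a bromodomain protein beside H2-DMa, had a log2 ratio of -0.09, and H2-Pa, an annotated pseudogene beside H2-Oa, one of 0.22. Psmb9 and Tap2, which flank H2-DMb1 and H2-Ob, were below the floor on both arrays.

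The factors that drive class II transcription showed no common direction. Of the enhanceosome and co-activator genes 5 of 8 on the array were measured, 2 higher and 3 lower, none by as much as 0.322 on the log2 scale. Their median log2 ratio was -0.02, and its sign changed under 3 of the 8 alternatives, which ran from -0.10 to 0.01. Smarca4, a chromatin remodelling ATPase, was 1.22-fold lower (357 in PS cDKO and 444 in control), and the acetyltransferase Crebbp was 1.11-fold lower. The factor Creb1, which binds beside the X box, had probe sets at -0.06 and 0.45, and the NF-Y subunit Nfyc had probe sets at -0.08 and 0.16. Rfxank, of the RFX complex, and the NF-Y subunit Nfyb were below the floor.

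Interferon γ is the main inducer of Ciita outside professional antigen-presenting cells. In its pathway, with the interferon regulatory factors added, 7 of 10 genes on the array were measured, 4 higher and 3 lower, and their median was 0.16 on the log2 scale. That median was 0.064 with the floor at the 60th percentile and 0.00051 with the brightest probe set of each gene. The transcription factor Irf1, a target of interferon γ that acts on the Ciita promoter, was 1.19-fold higher (1789 in PS cDKO and 1538 in control), and Irf4 was 1.18-fold higher. The kinase Jak1 was 1.30-fold lower (506 in PS cDKO and 675 in control) and the receptor chain Ifngr2 1.27-fold lower (531 in PS cDKO and 692 in control). Ifng itself, the receptor chain Ifngr1 and the myeloid factor Spi1 were below the floor on both arrays.

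Genes listed for endosomal processing of the invariant chain and of antigen, protease inhibitors included, lay mostly higher. Of 8 measured genes out of 12 on the array 7 were higher, 3 of them by at least 0.322 on the log2 scale. Over all measured genes 51.9% were higher, and 8.05% by that size. The median log2 ratio of the list was 0.21. Ctss, the protease that degrades the invariant chain in myeloid antigen-presenting cells, had 956 in PS cDKO and 545 in control, a log2 ratio of 0.84. Ctss is also counted among the microglia markers below. Ctsd, an aspartic protease, was 1.39-fold higher, and Cst3, the secreted inhibitor cystatin C, 1.36-fold higher. Ctsb, another cathepsin, averaged 0.24 over 3 probe sets that ran from -0.13 to 0.79. Of the CD74 ligand and its partner receptors, Mif was 1.26-fold higher (924 in PS cDKO and 752 in control) and Cxcr2 1.15-fold higher, while Cd44 and Cxcr4 were below the floor. The median of those 2 log2 ratios was 0.27.

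Co-stimulatory genes, which a cell needs beside class II to activate T cells, differed by less than 0.322 on the log2 scale wherever they were measured. Of 4 measured genes out of 6 on the array 3 were higher, and the median log2 ratio was 0.10, or 0.23 with the floor at the 20th percentile. Cd86 was 1.21-fold higher (437 in PS cDKO and 371 in control), Cd83 1.10-fold and Cd80 1.05-fold higher, and Cd40 was 1.24-fold lower (351 in PS cDKO and 446 in control).

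Markers of the cells that could carry class II were read beside Cd74. Of 14 microglia markers on the array 12 were measured, 11 of them higher and 5 by at least 0.322 on the log2 scale. Over all measured genes 51.9% were higher, and 8.05% by that size. Their median log2 ratio was 0.29, and it ran from 0.25 to 0.62 over the alternatives. The intensities of all 14 summed to 10567 in PS cDKO and 7907 in control, and Aif1 and Fcer1g were below the floor. The complement chains C1qa and C1qc, at log2 ratios of 1.08 and 0.73, and the integrin subunit Itgam, at 0.68, were the highest with Ctss. Ptprc was lower, at -0.05, and Fcgr3, Cd68 and Cx3cr1, at 0.11, 0.16 and 0.18, lay under the probe set SD of 0.21. Most microglia markers thus lay higher on the array on which Cd74 was higher, but by unequal amounts. Their part in the Cd74 result was not tested.

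Among border macrophage markers 2 of 6 on the array were measured, the folate receptor Folr2 at 0.32 and the reductase Cbr2 at -0.28, with a median of 0.02. Lyve1, Mrc1, Pf4 and Stab1 were below the floor, and the list summed to 1425 in PS cDKO and 1356 in control. Of 6 dendritic cell markers on the array 5 were measured, 3 higher, with a median of 0.28. All 6 together summed to 2706 in PS cDKO and 2594 in control. The median was 0.056 with the floor at the 60th percentile. Itgax, the CD11c integrin that activated microglia also make, was 1.31-fold higher, Zbtb46 higher by 0.321 on the log2 scale, Xcr1 1.21-fold higher, and Flt3 was 1.14-fold lower as the mean of 2 probe sets, while Ccr7 was below the floor.

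Lymphocyte and blood myeloid markers were mixed. All 7 B cell markers on the array were measured and 6 were higher, with a median of 0.15 on the log2 scale and sums of 6134 in PS cDKO and 5788 in control. The median was 0.07 with the floor at the 60th percentile. The antigen receptor chain Cd79a was 1.26-fold higher, the kinase Blk 1.16-fold, Cd22 1.11-fold and Ms4a1, the CD20 gene, 1.14-fold as the mean of 2 probe sets. Of 7 T cell markers on the array 3 were measured, with a median of -0.16, which turned to 0.062 with the floor at the 20th percentile. All 7 together summed to 2123 in PS cDKO and 2246 in control. The T cell receptor chain Cd3e was 1.19-fold higher, Cd4, the co-receptor for class II, 1.12-fold lower and Cd2 at least 1.44-fold lower, whereas Cd3d, Cd3g, Cd8a and Cd8b1 were below the floor. Of 5 monocyte and neutrophil markers on the array only S100a8 was measured, at least 1.31-fold higher. Ccr2, Chil3, Plac8 and S100a9 were below the floor, and that list summed to 763 in PS cDKO and 665 in control. The part of these cells in the class II values was not tested.

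Resident brain cells were read in the same way. The projection neuron markers Nrgn and Tbr1 were above the floor on both arrays, which by itself does not identify the tissue. Of 6 cortical neuron markers measured 4 were lower, with a median of -0.24 on the log2 scale and sums of 8357 in PS cDKO and 10453 in control. Nrgn was 1.49-fold, Tbr1 1.43-fold, Snap25 1.30-fold and Camk2a 1.07-fold lower. All 5 astrocyte markers measured were higher, with a median of 0.53 and sums of 5958 in PS cDKO and 3953 in control. The median was 0.20 with the floor at the 60th percentile and with the brightest probe set of each gene. Gfap was at 2.23, Aqp4 at 0.53, Slc1a2 at 0.20 and Gja1 at 0.55, the last as the mean of probe sets at 0.02 and 1.08. Endothelial markers had a median of 0.01 over 3 measured genes, with Cldn5 1.35-fold lower, Kdr 1.10-fold higher and Flt1 at 0.01, while Cdh5, Pecam1 and Tek were below the floor. The 6 endothelial markers on the array summed to 1603 in PS cDKO and 1574 in control, and the median ran from -0.03 to 0.14 over the alternatives. The targeted gene Psen2 had 1 probe set, at 94.9 in PS cDKO and 105 in control, below the floor on both arrays, and so gave no check of the genotype.

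**Figure D3:**
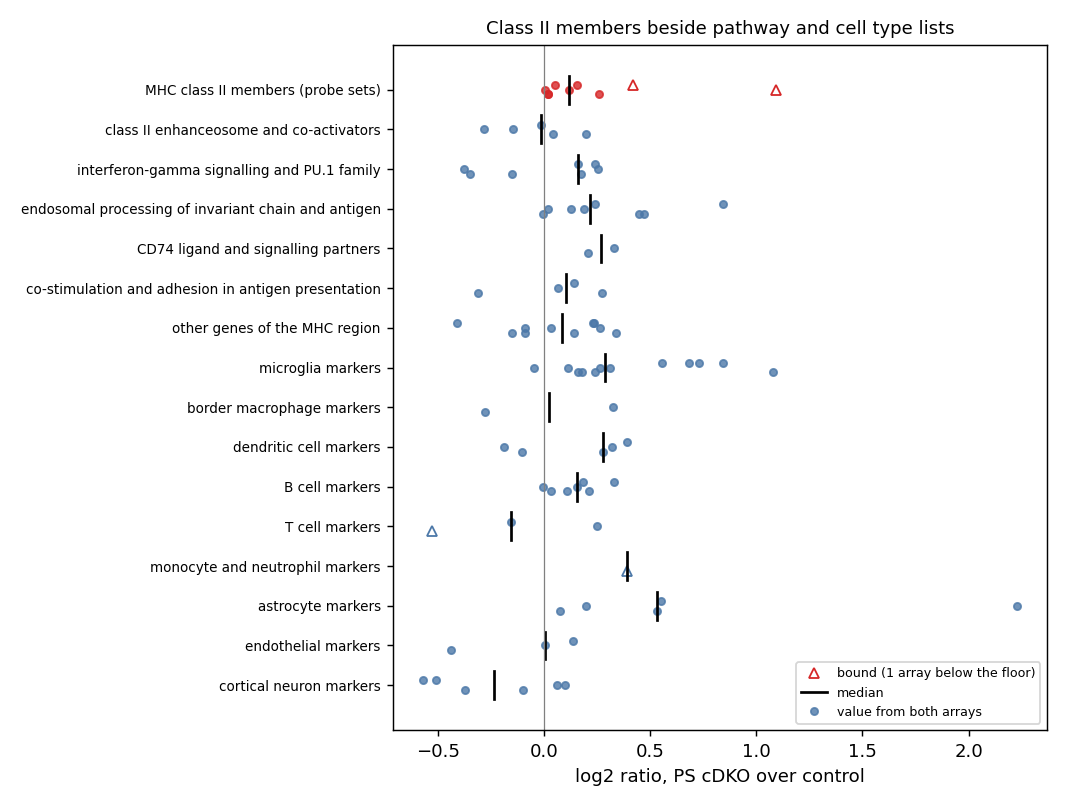
Log2 ratio of PS cDKO over control for the measured member probe sets (red) and for the measured genes of 15 pathway and cell type lists (blue), with list medians as black bars and open triangles for bounds. The member median is 0.12 with Cd74 apart at 1.09, and the highest list medians are those of the astrocyte, monocyte and neutrophil, and microglia markers, the second of these resting on the single bound of S100a8.

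The height of the floor decided which members had a ratio and how large the Cd74 bound was. The Cd74 log2 ratio ran from 1.07 to 1.12 over the alternatives except with the floor at the 60th percentile, where its bound was 0.29. H2-DMb1 ran from 0.39 to 0.51 and H2-Ab1 from 0.04 to 0.12 where they had a value, but both lay below the floor at the 60th percentile on both arrays, and the only H2-DMb1 probe set drops out without suffixed ones. H2-Oa ran from 0.22 to 0.26 and H2-Eb1 from 0.02 to 0.07, and only a changed scaling or normalization could move either ratio.

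**Figure D4:**
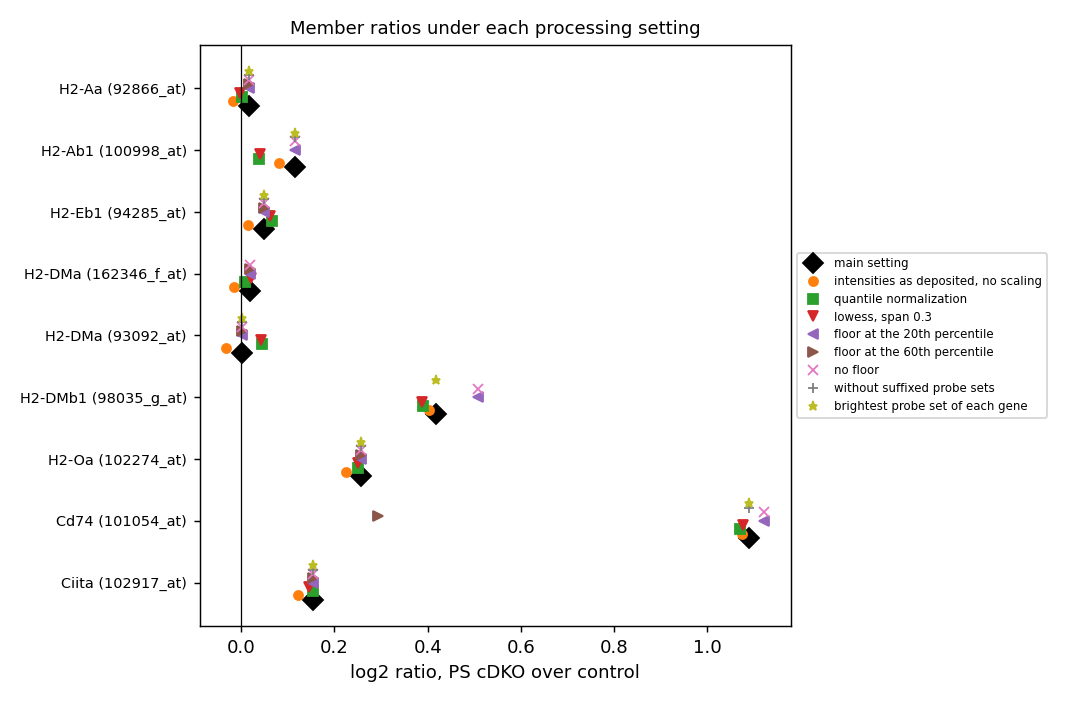
Log2 ratio of PS cDKO over control of each measured member probe set under the main setting (black diamonds) and 8 alternatives (other symbols). Cd74 stays above 1 except with the floor at the 60th percentile, where its bound is 0.29, and the H2-Aa and H2-DMa values straddle 0.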

How the data were processed

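The deposited table holds 1 linear array intensity for each of 12418 probe sets on each array, as the authors deposited it. The sources used name no software, background step or scaling. The table holds a few values below 0, 18 in PS cDKO and 13 in control. The median intensity was 305 in PS cDKO and 300 in control. Probe sets were named through the platform annotation, which can be old, and symbols were updated by gene ID to a RefSeq table of GRCm38.p6, which held 8237 of 8251 genes.

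The PS cDKO array was scaled to a median log2 ratio of 0 over probe sets above the median on both arrays. For list genes, log2 ratios of the probe sets measured on both arrays were averaged, or, where there was none, the bounds. Members and lists were chosen with earlier results of these data known. Named genes are all members, measured flanking genes and, from each list, up to 4 measured genes with the largest absolute log2 ratio. Other genes are named only as below the floor, apart from the microglia markers Ptprc, Fcgr3, Cd68 and Cx3cr1. Summed intensities, as deposited, take the brightest probe set of each gene of a list on the array, genes below the floor included. With 1 array per genotype no test was run, and the number of arrays limits the precision. The procedure was tested on simulated data with changes placed only in probe sets well above the floor on the control array. That simulation does not cover bounds such as those of Cd74 and H2-DMb1. The alternatives were the intensities as deposited, quantile normalization, lowess (span 0.3), a floor at the 20th or at the 60th percentile, no floor, no suffixed probe sets, and the brightest probe set of each gene. Python 3.11.15, numpy 2.4.6, pandas 2.3.3, statsmodels 0.14.6 and matplotlib 3.10.9 were used.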

Additional observations from a re-analysis of the deposited data

How the results depend on the processing

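No paired analysis was possible because each genotype had 1 array, which also means that leaving an array out gives no comparison. Over the 8 alternatives the number of measured member probe sets higher in PS cDKO ran from 6 to 10, against 9 of 9 as reported. It was 6 of 9 with the intensities as deposited, 10 of 10 with the floor at the 20th percentile and 10 of 11 with no floor. With no floor H2-Ea was lower, at a log2 ratio of -1.50. The median log2 ratio of the measured member probe sets ran from 0.05 to 0.14 (0.12 as reported). The members higher by at least 0.322 on the log2 scale, 2 as reported, numbered 0 with the floor at the 60th percentile and 1 without suffixed probe sets. Both follow from the setting: the higher floor lowered the Cd74 log2 bound to 0.29 and left H2-DMb1 below it on both arrays, and the only H2-DMb1 probe set is suffixed. Of 67 alternative values for single member probe sets, 66 moved by less than the SD of a single probe set. Many of these could not move. For members above the floor on both arrays, a changed floor left the ratio as it was or removed it. Leaving out suffixed or dimmer probe sets did the same for every member. The count is therefore no measure of stability. All but 1 of the sign changes among them came with the intensities as deposited (H2-Aa and both H2-DMa probe sets), and the other was H2-Aa after lowess. The median over all probe sets moved by less than 0.1. Of 94 alternative list medians 79 moved by less than that SD divided by the square root of the list's size. The others were, with the floor at the 20th percentile, microglia 0.40, cortical neurons -0.33, T cells 0.062 and co-stimulation 0.23. At the 60th percentile they were microglia 0.55, astrocytes 0.20, dendritic cells 0.056 and interferon γ 0.064. With no floor cortical neurons were at -0.33, and without suffixed probe sets microglia were at 0.62 and astrocytes at 0.36. With the brightest probe set per gene microglia were at 0.43, astrocytes at 0.20, endothelium at 0.14 and interferon γ at 0.00051. The causes of these list changes were not tested.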
